A study of Mus musculus with 12 samples.

Results

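The claudins and their tight junction partners were followed in bulk RNAseq of neonatal mouse cardiac fibroblast cultures reprogrammed with *Sox17* and *Erg*. The members are 9 genes chosen by symbol among the 35727 genes of the deposited count table, namely the claudins *Cldn1*, *Cldn2*, *Cldn5*, *Cldn10*, *Cldn11*, *Cldn12* and *Cldn15*, occludin (*Ocln*) and *Tjp1*. The study compared *Sox17*-*Erg* induced endothelial cells (iECs) with control fibroblasts after 3 days, 7 days and 4 weeks to ask when the cells took on endothelial identity. The 12 libraries fell into 6 groups of 2. All cultures came from hearts of neonatal mice, pooled at isolation, and were kept in EGM2 media, an endothelial growth medium. The methods describe a selection of fibroblasts by THY1, with a prior depletion of PECAM1-positive cells as an optional step. The section of the paper that reports the bulk RNAseq states that this depletion was added for characterizing iECs. The sample titles do not name it. The *Sox17*-*Erg* cultures received retroviruses carrying *Sox17* and *Erg*, and the columns of the control cultures are named for pMX, the retroviral backbone. The methods name C57BL/6J mice and a *Tcf21*-CreERT2 line carrying *Rosa26*-tdTomato as sources of cells, and the labels do not tie a strain to a library. The sample titles and the methods for bulk RNAseq name no sorting for reprogrammed cells, so a library is taken to hold reprogrammed and other cells together.

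Tight junctions seal the space between neighboring cells, and claudins are the membrane proteins that form their strands. Some claudins tighten the barrier and others form pores for ions, and each cell type uses its own set, with CLDN5 known as the main claudin of endothelium. Occludin is a second strand protein, and the scaffold TJP1 (ZO-1) ties the strands to the actin cytoskeleton and is also found at the adherens junctions of cells without tight junctions, fibroblasts included.

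The library totals ran from 19011635 to 41240449 counts, and the labels did not go against the delivered genes. *Sox17* ran from 0 to 0.416 CPM (counts scaled to a common library size) in the 6 control libraries and from 431.5 to 1036 CPM in the 6 *Sox17*-*Erg* libraries, and *Erg* from 0.0727 to 2.27 and from 17.1 to 65.2 CPM. All CPM values are normalized by TMM, edgeR's scaling for library composition. The labels do not say whether the 2 libraries of a group came from separate isolations, so each p-value measures only the spread between these libraries. In bulk libraries, fewer cells of a type and less RNA per cell cannot be told apart.

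*Tjp1* and *Cldn12* carried most of the signal when levels were divided by the exon length of each gene. Group means of *Tjp1* ran from 14.6 ± 1.20 (SD, n = 2) CPM per kilobase in control at Day 3 to 27.5 ± 4.75 in *Sox17*-*Erg* at Day 3. Those of *Cldn12* ran from 6.67 ± 0.142 to 12.2 ± 1.25 CPM per kilobase, those of *Cldn15* from 1.25 ± 0.81 to 8.25 ± 0.139, and those of *Cldn11* from 0.886 ± 0.607 to 7.77 ± 4.26. *Cldn1*, *Cldn2*, *Cldn5*, *Cldn10* and *Ocln* stayed at or under 0.291 CPM per kilobase in every group. In control at Week 4 the means of *Cldn15*, *Cldn11* and *Cldn12* lay between 7.75 and 8.25 CPM per kilobase and did not differ beyond their spread, and in *Sox17*-*Erg* cultures only *Cldn12* of these 3 stayed near that level, at 9.91 ± 0.724. Of the 9 members, 7 passed the filter on low counts, and *Cldn5* and *Cldn10* did not. *Cldn1* and *Ocln* passed with their counts mostly in 1 or 2 groups. The plot of CPM by library shows all 9.

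**Figure D1:**
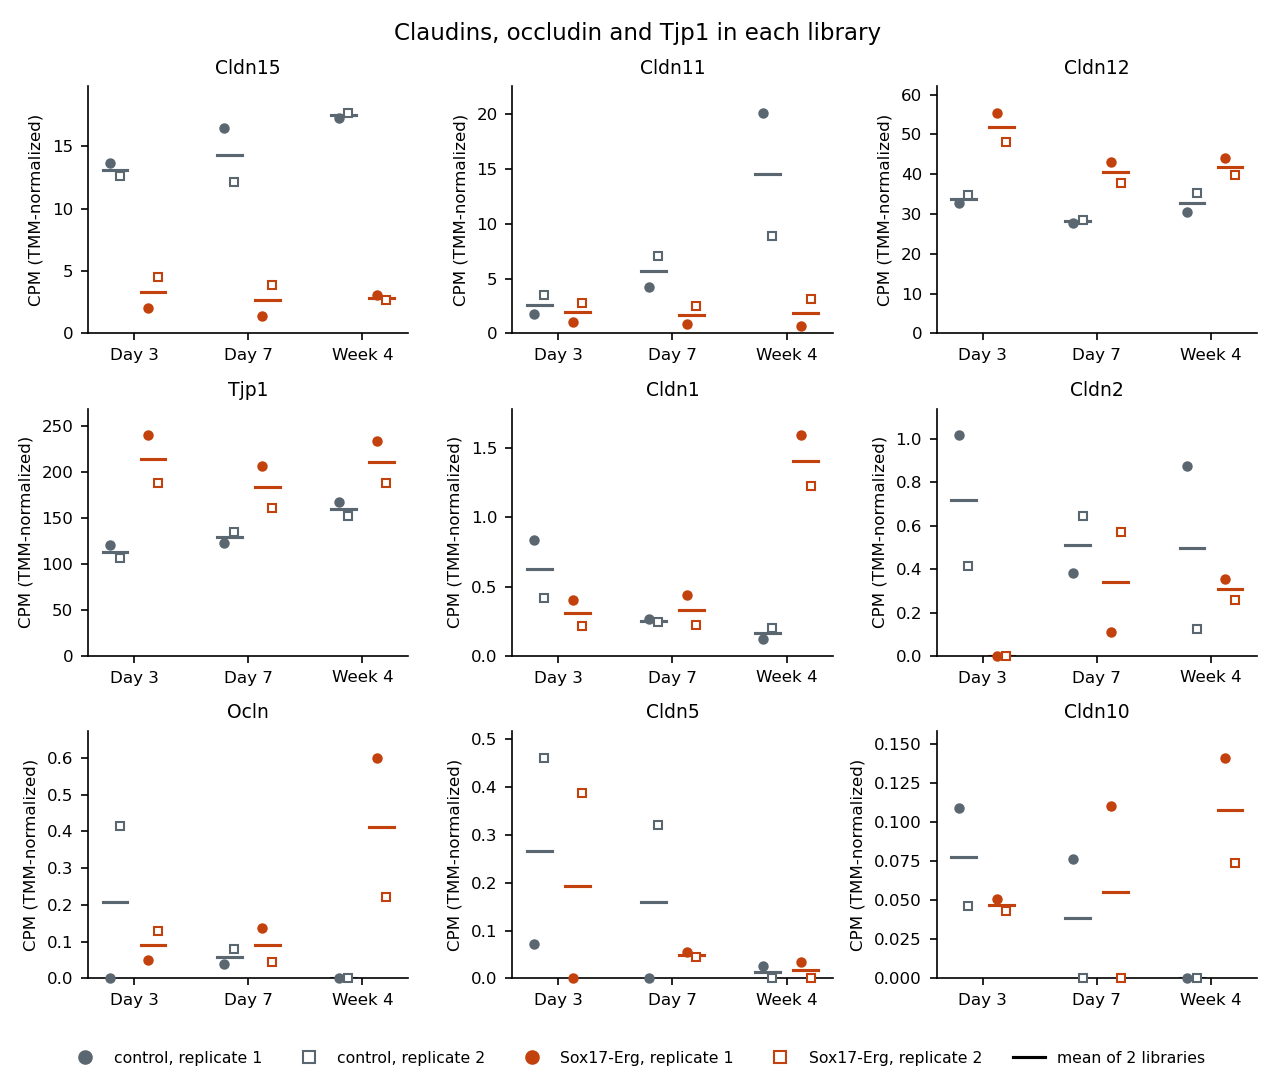
Level of each member in each library, as TMM-normalized CPM on linear axes that start at 0 and differ between panels. Circles are replicate 1, squares are replicate 2 and lines are means of 2 libraries; *Cldn15* is lower and *Cldn12* and *Tjp1* are higher in every *Sox17*-*Erg* library than in the control libraries of the same time point, while *Cldn5* stays under 0.5 CPM everywhere.

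Promoter sequence is shown for the members whose levels separated the cultures over all 3 time points, *Cldn15*, *Cldn12* and *Tjp1*, and for the endothelial claudin *Cldn5*. SOX17 is a SOX factor and ERG an ETS factor, so each window was searched on both strands for the ETS letters AGGAAG or CGGAAG and the SOX letters ACAAT. The windows run from 250 bases before the RefSeq start site to 30 bases after it in GRCm38.p6, are written 5′ to 3′ along the gene's strand, and carry matches in capitals.
*Cldn15*, chr5:136967619-136967898, plus strand: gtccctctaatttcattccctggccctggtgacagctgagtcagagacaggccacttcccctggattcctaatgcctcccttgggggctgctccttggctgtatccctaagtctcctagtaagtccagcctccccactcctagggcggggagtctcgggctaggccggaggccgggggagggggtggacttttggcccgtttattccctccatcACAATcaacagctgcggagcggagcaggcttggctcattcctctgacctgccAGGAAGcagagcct
*Cldn12*, chr5:5514760-5515039, minus strand: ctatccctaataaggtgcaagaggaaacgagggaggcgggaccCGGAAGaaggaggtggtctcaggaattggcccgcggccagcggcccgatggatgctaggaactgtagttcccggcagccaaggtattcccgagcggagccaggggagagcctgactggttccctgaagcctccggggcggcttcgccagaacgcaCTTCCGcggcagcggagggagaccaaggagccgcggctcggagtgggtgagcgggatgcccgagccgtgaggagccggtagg
*Tjp1*, chr7:65371215-65371494, minus strand: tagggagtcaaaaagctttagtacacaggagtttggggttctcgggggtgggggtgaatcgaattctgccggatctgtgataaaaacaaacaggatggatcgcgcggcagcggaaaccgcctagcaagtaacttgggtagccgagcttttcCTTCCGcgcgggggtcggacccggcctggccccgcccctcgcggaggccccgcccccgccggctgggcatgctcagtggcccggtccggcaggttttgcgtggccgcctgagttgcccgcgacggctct
*Cldn5*, chr16:18776597-18776876, plus strand: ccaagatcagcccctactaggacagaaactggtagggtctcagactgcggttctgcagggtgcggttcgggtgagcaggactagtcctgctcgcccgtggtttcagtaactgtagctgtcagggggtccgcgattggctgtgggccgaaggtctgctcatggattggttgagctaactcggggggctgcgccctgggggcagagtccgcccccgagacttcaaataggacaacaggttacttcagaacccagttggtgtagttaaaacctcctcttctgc

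The *Cldn15* window held 1 ETS match 17 bases after the start and 1 SOX match 36 bases before it, the *Cldn12* window held 2 ETS matches and the *Tjp1* window 1. *Cldn5* held no match to either. The *Tjp1* and *Cldn15* windows lie at internal starts of the genes as GENCODE draws them, 156537 and 1253 bases downstream of the gene's 5′ end, with 1 of 7 *Tjp1* transcripts and 1 of 3 *Cldn15* transcripts starting within 100 bases of the RefSeq start. Counts per gene do not tell which start was used, and the windows at the other starts were not searched. Entries for all 9 members were found, 13 windows in all because *Cldn10*, *Cldn12* and *Ocln* have several starts. Among these windows only those of *Cldn2*, *Cldn12*, *Cldn15* and *Tjp1* held ETS letters, and only that of *Cldn15* held SOX letters. Of all 32851 windows of this length in the table, 43.7% held the ETS letters and 29.8% the SOX letters, so such matches were common among promoters of any kind.

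*Cldn15* fell at all 3 time points. It encodes a claudin that forms sodium pores, known from the intestine, and its gene lies at chr5:136966616-136975858 on the plus strand. At Day 3 the control libraries held 13.6 and 12.6 CPM and the *Sox17*-*Erg* libraries 2.02 and 4.57 CPM. At Day 7 the values were 16.5 and 12.1 CPM against 1.43 and 3.86 CPM, and at Week 4 they were 17.3 and 17.7 CPM against 3.04 and 2.70 CPM. The groups did not overlap at any time point, and the lowest of the 6 control libraries stood above the highest of the 6 *Sox17*-*Erg* libraries. By edgeR's quasi-likelihood test the level was 3.96-fold lower at Day 3 (log2 fold change -1.98 ± 0.45 SE, adjusted p = 0.025), 5.52-fold lower at Day 7 (adjusted p = 0.0071) and 6.09-fold lower at Week 4 (log2 fold change -2.61 ± 0.45 SE, adjusted p = 0.0037). Adjusted p-values are Benjamini-Hochberg values over the 15506 genes tested, and a gene was called under 0.05. The Day 3 call was lost without control replicate 1 or 2 or *Sox17*-*Erg* replicate 1 of that day, with adjusted p up to 0.18, and the Day 7 call was lost at adjusted p = 0.059 when the 4 libraries of Day 7 were fitted alone. The size of the fall of *Cldn15* depended on single libraries. Without *Sox17*-*Erg* replicate 2 of the day the log2 fold change was -2.70 at Day 3 and -3.36 at Day 7, against -2.46 with all libraries at Day 7. Over the fits without 1 library the values ran from -2.70 to -1.57 at Day 3 and from -3.36 to -1.89 at Day 7.

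*Cldn11* rose with time in the control cultures and stayed low with *Sox17*-*Erg*. It encodes the claudin of oligodendrocyte myelin and of the Sertoli cell barrier, and lies at chr3:31149920-31164324 on the plus strand. The control libraries held 1.75 and 3.51 CPM at Day 3, 4.26 and 7.07 CPM at Day 7, and 20.2 and 8.90 CPM at Week 4. The *Sox17*-*Erg* libraries held 1.06 and 2.80 CPM, then 0.854 and 2.46 CPM, then 0.672 and 3.11 CPM. The groups overlapped at Day 3 and were apart at Day 7 and Week 4. By edgeR the gene was 7.71-fold lower with *Sox17*-*Erg* at Week 4 (log2 fold change -2.95 ± 0.81 SE, adjusted p = 0.029), with values of -0.42 ± 0.81 (adjusted p = 0.77) at Day 3 and -1.81 ± 0.80 (adjusted p = 0.16) at Day 7. Without 1 library the Day 7 value of *Cldn11* ran from -2.76 (without *Sox17*-*Erg* replicate 2 of that day) to -1.20 (without replicate 1), and its Day 3 value was -1.29 without *Sox17*-*Erg* replicate 2 of Day 3. From Day 3 to Week 4 it rose in control by a log2 fold change of 2.48 ± 0.79 (SE, adjusted p = 0.046). Both calls rested on single libraries, since the Week 4 call reached adjusted p = 0.15 without control replicate 1 and was also lost without *Sox17*-*Erg* replicate 1 of Week 4, and the rise in control was lost in 6 of 12 fits that left out 1 library, with adjusted p up to 0.24. The log2 fold change of *Cldn11* at Week 4 was -2.24 without control replicate 1, -2.23 without *Sox17*-*Erg* replicate 1 and -4.46 without *Sox17*-*Erg* replicate 2 of that time, and its rise in control was 1.77 without control replicate 1 of Week 4. The change of the effect from Day 3 to Week 4 did not pass the test (adjusted p = 0.3).

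*Cldn12* was higher in every *Sox17*-*Erg* library. It encodes a widely expressed claudin that lacks the C-terminal PDZ-binding motif of most claudins, and lies at chr5:5489537-5514958 on the minus strand. The values were 32.7 and 34.7 CPM in control against 55.5 and 48.0 CPM at Day 3, 27.8 and 28.6 against 43.2 and 37.8 CPM at Day 7, and 30.4 and 35.2 against 44.0 and 39.7 CPM at Week 4. The groups did not overlap at any of the 3 time points. The rise was 1.53-fold at Day 3 (log2 fold change 0.62 ± 0.13 SE, edgeR adjusted p = 0.017) and 1.44-fold at Day 7 (0.52 ± 0.13, adjusted p = 0.021), and the Week 4 value of 0.35 ± 0.12 did not pass the test (adjusted p = 0.071). Each call was lost in 3 of 12 fits without 1 library of its own day, namely control replicate 1, control replicate 2 or *Sox17*-*Erg* replicate 1, with adjusted p up to 0.18 at Day 3 and 0.15 at Day 7. The Day 7 call was also lost when the 4 libraries of that day were fitted alone (adjusted p = 0.1).

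*Tjp1* rose at Day 3. It lies at chr7:65296165-65527781 on the minus strand and had from 2316 to 7509 counts per library, the most of the members. The control libraries held 120.3 and 107 CPM at Day 3, 123 and 135 CPM at Day 7, and 168 and 153 CPM at Week 4. The *Sox17*-*Erg* libraries held 241 and 188 CPM, 207 and 161 CPM, and 234 and 189 CPM. All 6 *Sox17*-*Erg* libraries stood above the control libraries of their own time point. By edgeR the level was 1.89-fold higher at Day 3 (log2 fold change 0.92 ± 0.18 SE, adjusted p = 0.014), while the values of 0.51 ± 0.17 at Day 7 and 0.40 ± 0.17 at Week 4 did not pass (adjusted p = 0.074 and 0.13). With the replicate number as a block within each time point, or over all libraries, the Day 7 rise passed the test (adjusted p = 0.034 and 0.038), as it did by DESeq2 (adjusted p = 0.047). The Day 3 call was lost without either control library or *Sox17*-*Erg* replicate 1 of that day, with adjusted p up to 0.14.

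Averaged over all time points, the log2 CPM of *Cldn15* differed by -2.40, that of *Cldn11* by -1.83, that of *Cldn12* by 0.50 and that of *Tjp1* by 0.60. Exact two-sided permutation tests gave p = 0.0093 for *Cldn12*, *Cldn15* and *Tjp1*, the smallest that the arrangements within time points can give, 0.019 for *Cldn11*, 0.083 for *Cldn2*, 0.19 for *Ocln* and 0.28 for *Cldn1*, all unadjusted. When the cultures were swapped only within same-numbered pairs of a time point, a test added after the data were seen, the smallest p was 0.031. *Cldn11*, *Cldn12*, *Cldn15* and *Tjp1* all reached it, each with 1 direction in all 6 pairs, against 0.094 for *Cldn2*, 0.25 for *Ocln* and 0.44 for *Cldn1*. Both tests were run on the members alone, which were chosen with earlier results known. The share of all genes that would reach the smallest p is not known, so these values describe single genes.

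**Figure D2:**
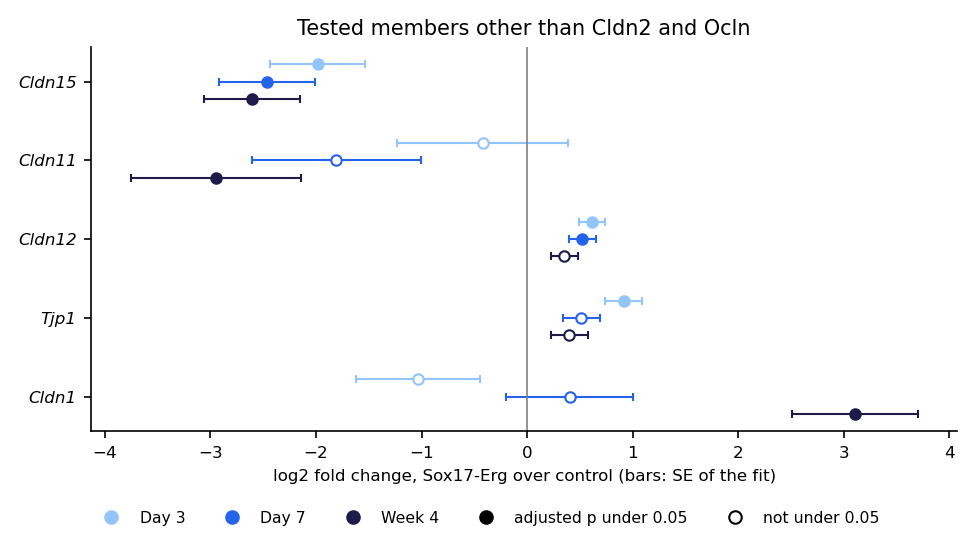
Log2 fold change of *Sox17*-*Erg* over control from the edgeR fit for the tested members other than *Cldn2* and *Ocln*, each of which had 0 counts in both libraries of a group, with bars for 1 SE and filled points for adjusted p under 0.05. *Cldn15* lies left of 0 and *Cldn12* and *Tjp1* right of 0 at all 3 time points, and *Cldn1* moves from -1.03 at Day 3 to 3.10 at Week 4.

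*Cldn1* changed late and at a low level. It encodes the barrier claudin of the epidermis, and lies at chr16:26356642-26371841 on the minus strand. The control libraries held 0.836 and 0.416 CPM at Day 3, 0.269 and 0.241 CPM at Day 7, and 0.125 and 0.203 CPM at Week 4. The *Sox17*-*Erg* libraries held 0.405 and 0.215 CPM at Day 3, 0.441 and 0.220 CPM at Day 7, and 1.59 and 1.22 CPM at Week 4. At Week 4 the groups were far apart, with 5 counts in each control library against 45 and 33 counts, whereas at Day 7 they overlapped. By edgeR the gene was 8.6-fold higher with *Sox17*-*Erg* at Week 4 (log2 fold change 3.10 ± 0.60 SE, adjusted p = 0.0057), against -1.03 ± 0.59 (adjusted p = 0.27) at Day 3 and 0.40 ± 0.60 (adjusted p = 0.68) at Day 7. The effect differed between Day 3 and Week 4 by a log2 value of 4.14 ± 0.83 (SE, adjusted p = 0.034). Within the *Sox17*-*Erg* cultures the level rose from Day 3 to Week 4 (2.18 ± 0.57, adjusted p = 0.02), and within control it fell by 1.96 ± 0.61 on the log2 scale (adjusted p = 0.041). Without control replicate 1 of Week 4 the Week 4 call was lost (adjusted p = 0.056), and 7 of 12 fits without 1 library lost the call of the difference in effect, namely those without any 1 library of Day 3 or Week 4 except control replicate 2 of Day 3, with adjusted p up to 0.13. Without control replicate 1 of Day 3 the difference in effect of *Cldn1* was 3.54 and its change in control -1.36 on the log2 scale. The Day 3 value of *Cldn1* ran from -1.58 to -0.43 over the fits without 1 library. The fall in control was lost in 8 of 12 such fits and by DESeq2 (adjusted p = 0.066), and the rise in *Sox17*-*Erg* cultures in 3 of 12 and with the replicate block within time points (adjusted p = 0.068).

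*Ocln*, the founding MARVEL-domain protein of the tight junction strand, was near its floor. It lies at chr13:100496507-100552718 on the minus strand. It had 17 and 6 counts (0.601 and 0.222 CPM) in the *Sox17*-*Erg* libraries at Week 4 and 0 in both control libraries of that time. Elsewhere 1 control library of Day 3 held 9 counts and the others held between 0 and 5. Taking 3 counts in each control library as the floor, *Ocln* was at least 4.18-fold higher with *Sox17*-*Erg* at Week 4, which missed the edgeR threshold (adjusted p = 0.052) and passed it with the replicate block within time points (adjusted p = 0.033), by DESeq2 (adjusted p = 0.031) and without a filter on low counts (adjusted p = 0.012). In the 12 fits without 1 library its adjusted p ran from 0.018 to 0.2, under the threshold only without control replicate 1 or 2 of Day 3. Without *Sox17*-*Erg* replicate 1 of Week 4, the library with 17 counts, *Ocln* was at least 2.25-fold higher.

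*Cldn2* encodes a pore for cations and water, known from the kidney's proximal tubule, and lies at chrX:139800828-139811386 on the plus strand. At Day 3 the control libraries held 28 and 9 counts (1.02 and 0.416 CPM) and both *Sox17*-*Erg* libraries held 0. At Day 7 the values were 0.384 and 0.643 CPM against 0.110 and 0.571 CPM, and at Week 4 they were 0.877 and 0.122 CPM against 0.354 and 0.259 CPM. The groups thus overlapped at both later time points. At Day 3 the level was at least 5.1-fold lower with *Sox17*-*Erg* against a floor of 3 counts per library (edgeR adjusted p = 0.049), and at least 2.96-fold lower without control replicate 1 of that day. This call lay at the threshold. It was lost with the replicate block over all libraries (adjusted p = 0.06), in the fit of Day 3 alone (adjusted p = 0.051) and in 8 of 12 fits without 1 library, namely those without any library of Day 3, either control library of Day 7 or either *Sox17*-*Erg* library of Week 4, with adjusted p up to 0.22.

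*Cldn5* stayed at or under 10 counts in every library of both cultures. The gene lies at chr16:18776847-18778262 on the plus strand and is a defining gene of endothelium. At Day 3 the control libraries held 2 and 10 counts and the *Sox17*-*Erg* libraries 0 and 9 counts. At Day 7 the counts were 0 and 8 against 2 and 1, and at Week 4 they were 1 and 0 in both cultures. The highest level was 0.462 CPM, in control replicate 2 of Day 3, and at 3 counts the 4 libraries with none allow levels up to between 0.111 and 0.152 CPM, for counting error only. The groups overlapped at Day 3 and Week 4, and at Day 7 the control values of 0 and 0.321 CPM enclosed those of *Sox17*-*Erg*. The gene failed the filter on low counts, so it has no test and no fold. *Cldn10*, a claudin of ion pores in the kidney, had at most 4 counts in any library and was treated alike. It lies at chr14:118787908-118875489 on the plus strand.

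The junction protein that marks endothelium beside *Cldn5*, VE-cadherin (*Cdh5*), went from between 0.230 and 14.3 CPM in control libraries to between 148 and 495.7 CPM with *Sox17*-*Erg*. It rose at all 3 time points (edgeR adjusted p = 0.043, 0.013 and 0.0027). Among 10 endothelial markers 4 rose at Day 3, 5 at Day 7 and 7 at Week 4, none fell, and their summed level was 21.0 to 61.7 CPM in control and 314 to 774.9 CPM with *Sox17*-*Erg*. *Cdh5* was the largest part of that sum with *Sox17*-*Erg*, at group means of 178, 324 and 445 CPM in order of time. Some markers showed no step at Day 3 and Day 7. Group means of *Vwf* were 1.57 CPM in control and 1.56 CPM with *Sox17*-*Erg* at Day 3. They were 6.09 and 5.64 CPM at Day 7 and 2.53 and 57.9 CPM at Week 4. Those of *Egfl7* were, in the same order, 4.83 and 5.15, 3.33 and 3.44, and 0.692 and 3.31 CPM. The endothelial adhesion molecule *Esam* was not called at any time point. It had 1.38 to 2.55 CPM in control and 1.32 to 2.80 CPM with *Sox17*-*Erg*. Its log2 fold changes lay between -0.03 and 0.40 (edgeR adjusted p from 0.52 to 0.98). Control replicate 2 of Day 3 and of Day 7, the control libraries with the most *Cldn5*, were also those with the most *Cdh5*, at 14.3 and 8.07 CPM against at most 0.909 CPM in the other 4. These values are set side by side in the plot of *Cldn5* and endothelial genes.

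**Figure D3:**
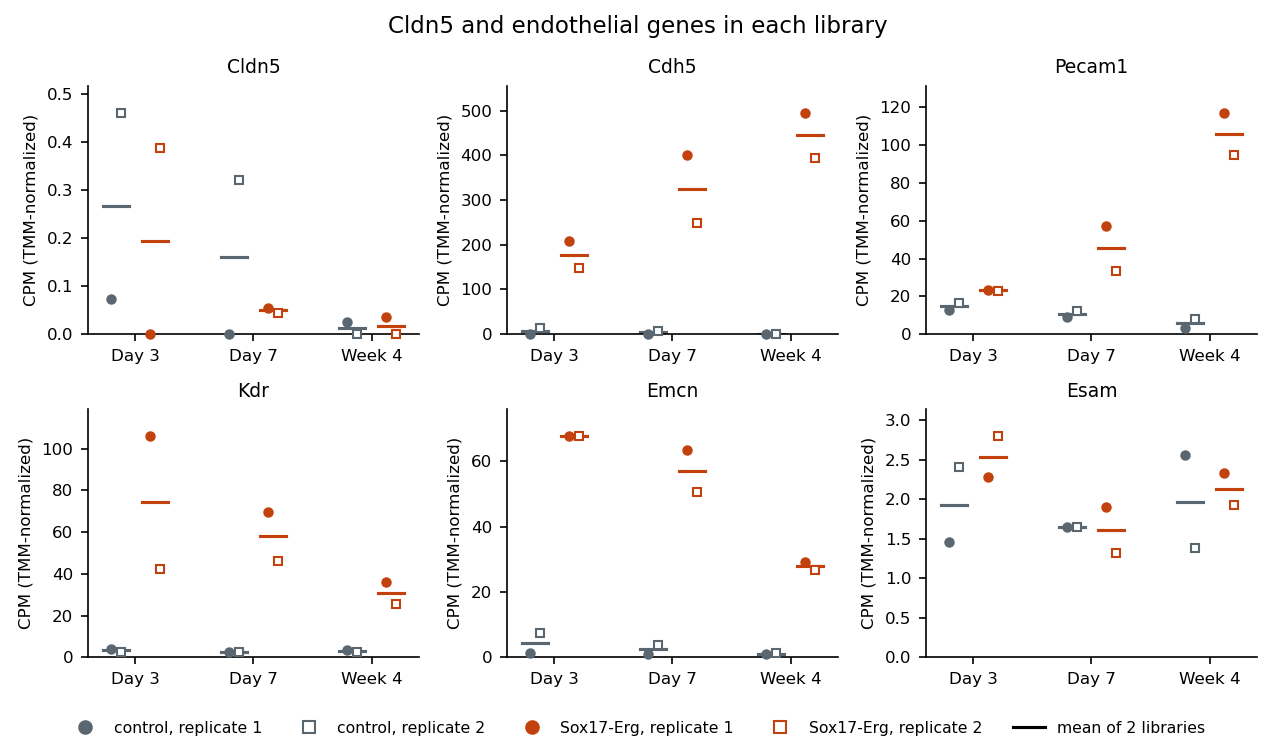
TMM-normalized CPM of *Cldn5* and of 5 endothelial genes in each library, on linear axes that start at 0 and differ between panels, with circles for replicate 1, squares for replicate 2 and lines for means of 2 libraries. *Cdh5*, *Kdr* and *Emcn* are high in all 6 *Sox17*-*Erg* libraries, whereas *Cldn5* and *Esam* show no such step.

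Of the 7 members tested, 2 were called higher and 2 lower at Day 3, where 7.19% of all genes tested were called higher and 5.13% lower. At Day 7 the counts were 1 higher and 1 lower (all genes 9.48% and 7.93%), and at Week 4 they were 1 higher and 2 lower (all genes 11.9% and 11%). The effect differed between Day 3 and Week 4 for 1 member, upward, and for none downward (all genes 2.22% and 0.987%). From Day 3 to Week 4, 1 member rose and 1 fell in control (all genes 13.9% and 12.6%), and 1 rose and none fell with *Sox17*-*Erg* (all genes 15.1% and 15.6%). With the replicate block over all libraries *Tjp1* rose in control as well (log2 fold change 0.50, adjusted p = 0.064 without and 0.029 with it), and with the block within time points *Cldn2*, at 0 in both *Sox17*-*Erg* libraries of Day 3, rose with *Sox17*-*Erg* (0.067 and 0.05, just under the threshold). With so few members these counts describe single genes and are no result about the group. Both directions were present at each time point.

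Markers of other cell types moved between the same libraries. Of 10 mesothelial or epicardial markers, cells that carry claudins of their own, 3 fell at Day 3, 4 at Day 7 and 8 at Week 4, and none rose. Their summed level was 359 to 1523 CPM in control and 167 to 352 CPM with *Sox17*-*Erg*, led by *Msln*, and in each group it was higher in replicate 1 than in replicate 2. The sums lay below control at every time point without overlap. *Cldn15* shared the replicate order in 3 of 6 groups, control at Day 3 and Day 7 and *Sox17*-*Erg* at Week 4, and was higher in replicate 2 in the other 3, by little in control at Week 4 (17.3 and 17.7 CPM). The 10 Schwann or glial markers, chosen beside the myelin claudin *Cldn11*, summed to 46.5 to 71.8 CPM in control and 27.9 to 42.1 CPM with *Sox17*-*Erg*, without overlap at any time point. Of the 7 tested, *S100b* fell at Day 3 (log2 fold change -2.49, edgeR adjusted p = 0.016) and *Mbp* and *Cnp* fell at Week 4, but the defining marker *Mog* was at or under 0.172 CPM in every library. Epithelial markers summed to 11.1 to 27.1 CPM and 4.63 to 12.7 CPM, overlapping at Day 3 and apart at Day 7 and Week 4. *Cdh3* made up most of these sums and was the 1 of 3 tested that fell, at Week 4. Its group means in order of time were 15.3, 14.6 and 13.2 CPM in control and 5.85, 5.86 and 2.95 CPM with *Sox17*-*Erg*. Group means of *Esrp2* went the other way, at 2.07, 1.19 and 0.892 CPM against 3.16, 1.80 and 1.60 CPM, without a call. *Esrp1* was at 0 in every library, and *Epcam*, *Cdh1* and *Krt5* were at or under 0.658 CPM. Fibroblast markers summed to 16647 to 40244 CPM in control and 12819 to 41988 CPM with *Sox17*-*Erg*, with 1 lower at Day 3, 1 higher and 3 lower at Day 7, and 1 higher and 4 lower at Week 4. Their sums overlapped at Day 3 and Day 7 and were apart at Week 4, at 16647 and 20218 CPM in control against 12819 and 13439 CPM. The collagen genes *Col1a1*, *Col1a2* and *Col3a1* made up most of these sums, so the sums say little about the other markers. Group means of *Tcf21* were 217, 463 and 452 CPM in control against 30.8, 111 and 102 CPM in order of time. *Postn* went the other way, at 760 against 4908 CPM at Day 7. Cardiomyocyte markers summed to between 639.8 and 1528 CPM in control and between 332 and 688 CPM with *Sox17*-*Erg*, without overlap at any time point, and 2 of 10 fell at Day 3, 4 at Day 7 and 7 at Week 4. The summed level of smooth muscle or pericyte markers was higher in every *Sox17*-*Erg* library than in the control libraries of its time point, as were *Cldn12* and *Tjp1*. The sums were 3375 and 3726 CPM in control against 4670 and 4811 CPM at Day 3, 579 and 1388 against 2193 and 4784 CPM at Day 7, and 1036 and 2532 against 4601 and 4671 CPM at Week 4, each pair from lowest to highest. Of the 10, 2 were called higher at Day 3, 6 higher and 1 lower at Day 7, and 5 higher and 3 lower at Week 4. Macrophage or leukocyte markers summed to 932 and 1388 CPM in control against 292 and 487 CPM with *Sox17*-*Erg* at Day 7, without overlap, and their sums overlapped at Day 3 and Week 4, and no single marker passed the test. The part of these cell types in the changes of the claudins was not tested.

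**Figure D4:**
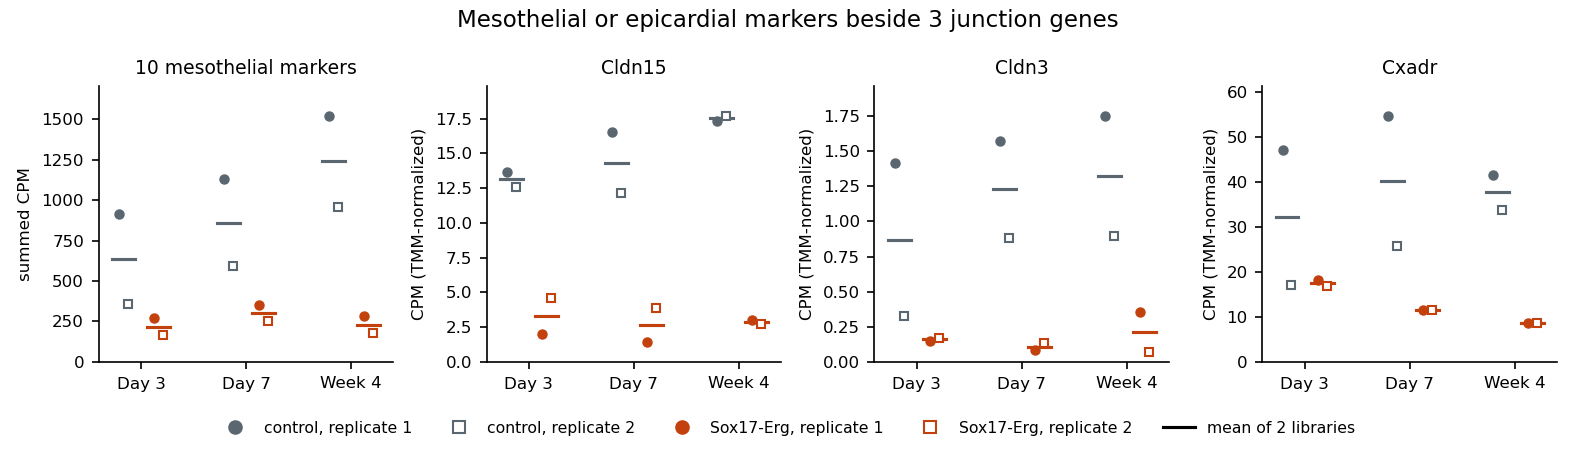
Summed TMM-normalized CPM of 10 mesothelial or epicardial markers (left) beside the CPM of *Cldn15*, *Cldn3* and *Cxadr* in each library, with circles for replicate 1, squares for replicate 2 and lines for means of 2 libraries, on linear axes from 0. At each time point control replicate 1 holds a higher marker sum, more *Cldn3* and more *Cxadr* than control replicate 2, while *Cldn15* is higher in control replicate 1 at Day 3 and Day 7 and differs little between the 2 at Week 4.

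Further tight junction genes were read from a list of 58. Of these, 7 had 0 counts in all 12 libraries, 13 reached at most 10 counts and 37 passed the filter, including 3 of 19 further claudins and claudin-like genes. At Day 3, 1 rose and 3 fell, at Day 7, 3 rose and 6 fell, and at Week 4, 7 rose and 8 fell (edgeR, adjusted p under 0.05). As shares of the 37, 2.7% rose and 8.11% fell at Day 3 (all genes 7.19% and 5.13%), 8.11% and 16.2% at Day 7 (all genes 9.48% and 7.93%), and 18.9% and 21.6% at Week 4 (all genes 11.9% and 11%), so the Day 3 counts and the rises at Day 7 lay near or under the background. The medians over the 37 genes were 0.03, -0.10 and -0.05 on the log2 scale, against 0.01, 0.01 and -0.01 for all genes. With the replicate block within time points 8 genes rather than 4 were called at Day 3, the further genes being *F11r* and *Arhgef2* (higher) and *Amotl2* and *Magi2* (lower). None of the 37 changed its effect between Day 3 and Week 4 by edgeR without a block, and *Jam2* and *Arhgef2* did with the block within time points (adjusted p = 0.035 and 0.04).

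Scaffold proteins went either way where they changed. The MAGUK scaffold *Magi1* rose at Week 4 (log2 fold change 0.97 ± 0.22 SE, edgeR adjusted p = 0.012), from 7.71 and 8.33 to 17.4 and 14.0 CPM, a call lost without replicate 1 of either culture at Week 4, and its Day 7 value of 0.65 (adjusted p = 0.071) passed with the replicate block within time points (0.021). The paracingulin gene *Cgnl1* fell at Day 7 (-1.93 ± 0.26, adjusted p = 0.0017), from 46.7 and 69.5 to 16.0 and 14.5 CPM, with a Week 4 value of -0.66 ± 0.25 (adjusted p = 0.095, and 0.019 with that block). *Cgn*, encoding cingulin, and *Mpdz* were lower at Week 4 as well (adjusted p = 0.043 and 0.039) and are named here after their values were seen. With the same block *Cgn* also passed at Day 7 (adjusted p = 0.12 without and 0.015 with it), as did *Magi2*, a relative of *Magi1*, at Day 3 (0.12 and 0.025) and Day 7 (0.16 and 0.027).

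Of 6 junctional adhesion molecules and relatives tested, 1 fell at Day 3, 2 fell at Day 7, and 2 fell and 1 rose at Week 4, and of 2 angulins tested 1 fell at each time point. In order of time, 5.13%, 7.93% and 11% of all genes were lower and 11.9% were higher at Week 4, so counts this small describe single genes. *F11r*, *Jam2* and *Esam* of the first group and *Lsr* of the second were not called at any time point without a block. With the replicate block within time points *F11r* passed at Day 3 (log2 fold change 0.57, adjusted p = 0.44 without and 0.017 with it), *Jam2* at Week 4 (0.47, adjusted p = 0.2 and 0.025) and *Lsr* at Day 7 (adjusted p = 0.11 and 0.043) and Week 4 (0.11 and 0.039), where it also passed with the block over all libraries (0.046). *Clmp*, a relative of the coxsackie and adenovirus receptor known from adipocytes and intestine, held 45.4 and 60.2 CPM in control against 5.46 and 14.5 CPM at Day 3, and 69.2 and 79.8 against 2.87 and 8.11 CPM at Week 4. It was lower at all 3 time points, without overlap, by log2 fold changes of -2.40 ± 0.63, -2.73 ± 0.63 and -3.76 ± 0.67 (edgeR adjusted p = 0.041, 0.019 and 0.004). Without *Sox17*-*Erg* replicate 2 of the time point the values of *Clmp* were -3.27, -3.83 and -4.72, and without *Sox17*-*Erg* replicate 1 the Day 7 value was -2.10. The Day 3 call was lost in 7 of 12 fits without 1 library, and the Day 7 call without control replicate 2 or *Sox17*-*Erg* replicate 1 of Day 7 or in the fit of Day 7 alone. *Cxadr*, the receptor itself, overlapped at Day 3, with 47.0 and 17.1 CPM in control and 18.3 and 16.9 CPM with *Sox17*-*Erg*, and reached 41.5 and 33.7 against 8.67 and 8.66 CPM at Week 4. Its fall passed at Day 7 (-1.80 ± 0.45, adjusted p = 0.025) and Week 4 (-2.12 ± 0.45, adjusted p = 0.0097), and either call was lost without *Sox17*-*Erg* replicate 1 or 2 of its time point, the Day 7 call also without control replicate 1 (*Cxadr* value -1.16). *Jam3*, a junctional adhesion molecule found in endothelium, rose at Week 4 from 28.4 and 23.2 to 37.9 and 36.1 CPM (0.52 ± 0.13, adjusted p = 0.019), a call lost without control replicate 2 or either *Sox17*-*Erg* library of Week 4. *Ildr2*, an angulin of tricellular contacts, was lower at all 3 time points (-1.10 ± 0.31, -1.30 ± 0.31 and -1.60 ± 0.31, edgeR adjusted p = 0.049, 0.019 and 0.0055), with its highest levels in both cultures at Week 4, at 208.5 and 183 CPM in control and 62.8 and 65.9 CPM with *Sox17*-*Erg* at Week 4. Its Day 3 call was lost in 11 of 12 fits without 1 library, the *Ildr2* value being -0.51 without control replicate 1, and its Day 7 call without either control library or *Sox17*-*Erg* replicate 1 of Day 7.

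*Cldn3*, a barrier claudin of epithelia, was the further claudin that passed the test. Control libraries held 1.42 and 0.324 CPM at Day 3, 1.57 and 0.884 CPM at Day 7, and 1.75 and 0.894 CPM at Week 4, and *Sox17*-*Erg* libraries 0.152 and 0.172, 0.0827 and 0.132, and 0.354 and 0.0740 CPM. The groups did not overlap at any time point. Its fall was called at Day 7 (log2 fold change -3.51 ± 0.92 SE, edgeR adjusted p = 0.03), a call lost without any 1 of the 4 libraries of that day, with adjusted p up to 0.2, and had adjusted p = 0.11 at Day 3 and 0.051 at Week 4, the last passing with either replicate block (0.02 and 0.022). *Cldn3* and *Cxadr* were higher in replicate 1 than in replicate 2 of control at all 3 time points, as the summed mesothelial or epicardial markers were. With *Sox17*-*Erg*, where that sum was also higher in replicate 1, *Cldn3* was higher in replicate 2 at Day 3 and Day 7. *Cxadr* hardly differed between the *Sox17*-*Erg* replicates at Day 7 (11.5 ± 0.0418 CPM, SD, n = 2) and Week 4 (8.67 ± 0.00324 CPM).

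Polarity and regulatory proteins of the junction also moved in both directions. *Arhgef2* (GEF-H1), a microtubule-bound activator of RhoA, held 75.0 and 82.1 CPM in control and 177 and 158 CPM with *Sox17*-*Erg* at Week 4, without overlap. Its rise passed at Day 7 (0.65 ± 0.12, edgeR adjusted p = 0.0074) and Week 4 (1.09 ± 0.12, adjusted p = 0.00036), and the Day 7 call was lost without control replicate 2 or *Sox17*-*Erg* replicate 1 of that day and in the fit of Day 7 alone. With the replicate block within time points its Day 3 value of 0.38 passed as well (adjusted p = 0.07 without and 0.042 with it). *Tjap1*, a tight junction-associated protein, rose at Day 7 (0.70 ± 0.11, adjusted p = 0.0038) and Week 4 (0.85 ± 0.11, adjusted p = 0.00097), the Day 7 call being lost in the fit of Day 7 alone (adjusted p = 0.052). The angiomotin gene *Amot*, whose product binds YAP at junctions, fell at all 3 time points (-0.90 ± 0.22, -1.30 ± 0.22 and -1.89 ± 0.22, edgeR adjusted p = 0.031, 0.0045 and 0.00047), from 59.5 and 47.1 to 13.4 and 15.4 CPM at Week 4. Its Day 3 call was lost without control replicate 1 or either *Sox17*-*Erg* library of that day and in the fit of Day 3 alone. Its relative *Amotl2* was lower at Week 4 (-0.77 ± 0.17, adjusted p = 0.012), a call lost without control replicate 1 or *Sox17*-*Erg* replicate 2 of Week 4, and its Day 3 value of -0.40 passed with the block within time points (adjusted p = 0.16 without and 0.033 with it).

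Of the 9 polarity genes tested, 1 rose and 1 fell at Week 4, a share at the background (all genes 11.9% and 11%), and none was called earlier. *Prkcz*, an atypical protein kinase C, went from 6.39 and 4.76 CPM in control to 1.56 and 1.52 CPM (-1.86 ± 0.39, edgeR adjusted p = 0.0093), a call lost without control replicate 1 or either *Sox17*-*Erg* library of Week 4. *Pard6g*, its partner in the PAR complex, went from 8.52 and 10.4 to 18.7 and 12.3 CPM (0.71 ± 0.21, adjusted p = 0.035), a call lost in 4 of 12 fits without 1 library and with the replicate block within time points (adjusted p = 0.052). *Epb41l4b*, a FERM-domain activator of myosin at junctions, went from 0.601 and 0.366 to 2.79 and 1.26 CPM at Week 4 (2.04 ± 0.60, adjusted p = 0.038), a call lost in 7 of 12 such fits, with a value of 1.35 without *Sox17*-*Erg* replicate 1 of Week 4. In the fits of Week 4 alone, *Jam3*, *Pard6g*, *Amotl2* and *Epb41l4b* were not called. Antisense or neighboring genes on the other strand cover 43.6% of the exon bases of *Lsr* by 1 such gene, 36.2% of those of *Jam3*, 11% of *Ildr2*, 10.1% of *Clmp* and 9.39% of *Cxadr*, and whether strand was used in counting is not given in the sources used here, so their reads cannot be told apart from those of the partners. No member shared exon bases with another gene.

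**Figure D5:**
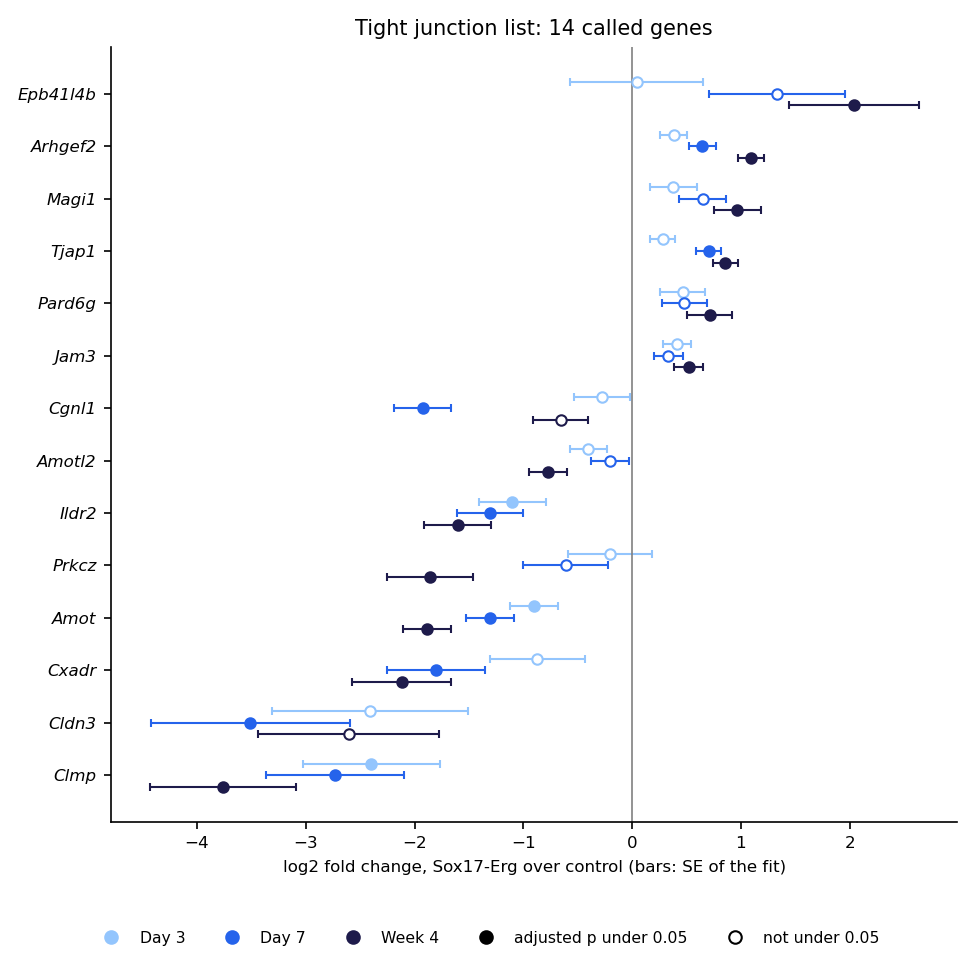
Log2 fold change of *Sox17*-*Erg* over control from the edgeR fit for 14 genes of the tight junction list, ordered by their Week 4 value, with bars for 1 SE and filled points for adjusted p under 0.05. *Epb41l4b* lies furthest to the right at Week 4 (2.04) and *Clmp* furthest to the left (-3.76), and 6 genes lie right of 0 and 8 left of 0 at that time.

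The genes whose pattern was most like that of a member were named for the 3 members with the largest called changes at Week 4, by Pearson's r of log2 CPM over the 12 libraries. For *Cldn15* they were *Il1r1* (r = 0.977), an interleukin-1 receptor, *Chst1* (0.976), a sulfotransferase, and *Rbfox1* (0.975), a splicing factor, and *Il1r1* held group means of 153 to 195 CPM in control and 88.5 to 93.5 CPM with *Sox17*-*Erg*. For *Cldn11* they were *Cutc* (0.939), which went from 2.12 ± 0.472 CPM (SD, n = 2) at Day 3 to 3.89 ± 0.253 CPM at Week 4 in control and stayed at 1.62 to 1.67 CPM with *Sox17*-*Erg*, and *Timm21* (0.935). For *Cldn1* they were *Crybg1* (0.949), *Adam28* (0.904), a membrane protease, and *Atp2b4* (0.9), a calcium pump whose group mean was highest in *Sox17*-*Erg* at Week 4, at 57.7 ± 3.39 CPM, against 14.4 to 24.6 CPM elsewhere. These are descriptions over 12 libraries that share 6 groups, so any gene that separates the same groups correlates.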

How the data were processed

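Bulk RNAseq was measured in 12 libraries, 2 in each of 6 groups taken from the sample titles. The authors sequenced stranded mRNA libraries with 2 × 50 base reads, trimmed reads for high GC content (BBDuk), quantified them (Salmon) and deposited, for each gene, an estimated count that is rounded to a whole number and not normalized. The submitters' processing notes name bcl2fastq 2.20.0, Salmon, DESeq2 and mm10, with no Salmon version or annotation given in the sources used here. Symbols, positions and exon lengths came from GENCODE M21 (GRCm38), in which 35422 IDs matched, and promoters from RefSeq.

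The fit used edgeR 4.0.16 in R 4.3.3 (TMM, filterByExpr at a minimum count of 10 and total of 15, which kept 15506 genes, quasi-likelihood test, 1 mean per group, 6 residual degrees of freedom), and calls were made at p under 0.05 after Benjamini-Hochberg adjustment. The fit was also run on simulated counts with known folds, and the outcome is not given here. log2 CPM used a prior count of 2. Replicates differed far beyond counting error (chi-square per degree of freedom 27.4 to 70.4), so SEs come from the fit, and floors of 3 counts cover counting error only. Alternatives were DESeq2 1.42.0, its size factors, other filters and thresholds, single time points, replicate blocks and leaving out each library. Across genes, libraries with the same number deviated together from their group means (r = 0.19 at Day 3, 0.3 at Day 7, 0.17 at Week 4). Fits and swaps that pair libraries by the label numbers are therefore given as alternatives. The main fit and the main permutation tests used no pairing, so their p-values leave this shared deviation out of account. The members and lists were chosen with earlier results of these data known. All 9 members were named, with up to 15 called genes of the tight junction list by smallest adjusted p. Values of a few named or listed genes are not reported here.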

Additional observations from a re-analysis of the deposited data

Results flagged for a closer look

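The effect of *Sox17*-*Erg* on *Cldn1* differed between time points. The log2 fold change over control was -1.03 ± 0.59 (SE) at Day 3 and 3.10 ± 0.60 at Week 4, a difference of 4.14 ± 0.83 (edgeR adjusted p = 0.034), on 5 to 45 counts per library. It was called by DESeq2 (adjusted p = 0.0085), without a filter on low counts (0.0073) and with either replicate block (0.028 and 0.03), and lost in 7 of 12 fits that left out 1 library. The part of other cell types in it was not tested. No group of 4 or more libraries was available for a check of outlying libraries.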

How the results depend on the processing

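With 2 libraries per group, leaving out a library leaves an arm with 1, which is assumed to vary like the other groups. In the 12 such fits, members called ranged from 0 to 4 at Day 3, from 1 to 2 at Day 7 and from 1 to 4 at Week 4, from 0 to 1 for the change of the effect, from 0 to 3 for control over time and from 0 to 2 for *Sox17*-*Erg* over time. Day 3 fell to 0 without control replicate 1 or 2 or *Sox17*-*Erg* replicate 1 of Day 3, Day 7 to 1 without the same libraries of Day 7, and Week 4 to 1 without control replicate 1. Genes called in the tight junction list ranged from 0 to 4 at Day 3, from 4 to 9 at Day 7 and from 8 to 15 at Week 4, the lowest without control or *Sox17*-*Erg* replicate 1 of Day 3, *Sox17*-*Erg* replicate 1 of Day 7 and control replicate 1 of Week 4. Uncalled log2 fold changes crossed 0 for *Cldn11* at Day 3 (-1.29 to 0.12), *Ocln* at Day 3 (-2.12 to 4.37) and Day 7 (-0.39 to 1.25), *Cldn1* at Day 7 (-0.21 to 0.74), and *Cldn2* at Day 7 (-2.21 to 0.15) and Week 4 (-1.49 to 1.30), and no called value did. Without a filter on low counts, members called were 4 at Day 7, 3 for the change of the effect and 2 for *Sox17*-*Erg* over time, the last also 2 by DESeq2, and 8 listed genes were called at Day 3. With the replicate block within time points 8 listed genes were called at Day 3, and beyond the calls given with each gene above the blocks changed no other call of a member or, between the cultures, of a listed gene. In fits of 1 time point, 2 listed genes were called at Day 3, and no member (0) and 5 listed genes at Day 7. At adjusted p under 0.01, members called were 0 at Day 3, 1 at Day 7 and 0 for the 3 time comparisons, and listed genes 0, 5 and 8 at the 3 time points in order. With a minimum log2 fold change of 1 they were 2 members at Day 3, 1 member at Day 7 and 9 listed genes at Week 4. A filter of 1 CPM removed *Cldn2* and *Ocln*, and DESeq2 gave *Cldn2* at Day 3 no adjusted p. Permutation p-values for the 7 members kept their side of 0.05 under DESeq2 size factors, a prior count of 0.5 and swaps within same-numbered pairs. Depth limits *Cldn5*, *Cldn10* and *Ocln*.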
